A study of Mus musculus with 4 samples.

Results

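The collagen genes of mouse liver are described here across 2 genotypes and 2 ages. The members are all genes whose symbol in the platform annotation has the form Col, a number, a and a number, and there were 44 of them among 19938 genes with a symbol on the array. Each group was 1 Affymetrix Mouse Gene 1.0 ST array that carried total RNA of Liver pooled from 3 pairs of mice. The groups were SIRT6Co/Co ;Alb-Cre at 8 months (KO), the same genotype at 2 months, WT SIRT6 at 8 months (WT) and WT SIRT6 at 2 months. SIRT6Co/Co ;Alb-Cre mice carry a conditional allele of Sirt6, a chromatin-bound deacetylase, and a Cre transgene driven by the albumin promoter, a promoter of hepatocytes and not of the mesenchymal cells that make most liver collagen. The sources used here do not say whether the WT mice carried Cre.

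Collagens are proteins of the extracellular matrix in which chains with a glycine at regular steps wind into a helix. Fibrillar collagens, above all types I, III and V, form the banded fibres of portal tracts and scars. Type IV forms the sheet-like network of basement membranes, and type VI forms beaded filaments between cells and fibres. In the liver most fibrillar collagen comes from stellate cells, portal fibroblasts and the myofibroblasts that derive from them, while endothelial and bile duct cells contribute basement membrane chains.

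Values are log2 RMA values, a scale on which 1 unit is a 2-fold difference, and levels of different genes cannot be set against each other because each probe set has its own response. Of the 44 collagen genes, 37 had a mean over the 4 arrays above 3.34, the 40th percentile of all genes, and entered the tests, which covered 11963 genes. These 37 were 9 of 11 fibrillar, 5 of 6 basement membrane (type IV) and 23 of 27 other collagens. A difference between 2 arrays has no test. The test is a limma fit of the tested genes with genotype and age as additive terms, called at a Benjamini-Hochberg adjusted p of 0.05, and only genes past it are said to rise or fall. It leaves 1 residual degree of freedom per gene, so its p-values weigh an effect against the departure from additivity, and not against the spread between pools or animals. In pooled bulk tissue, fewer cells of a type and less RNA per cell cannot be told apart.

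The probe set of Sirt6 itself read 4.46 and 4.54 in KO at 8 and 2 months, against 4.50 and 4.55 in WT, a KO minus WT effect of -0.03 (SE 0.13, limma adjusted p 0.92). The sources used here do not say which exons it covers, and every genotype direction rests on the labels. The hepatocyte markers Alb, Apoa1 and Ttr were between 11.86 and 12.60 on every array. Median levels of the 4 arrays lay within 3.52 to 3.58, but dim genes were lower on the KO array at 2 months. Over the 4903 tested genes with a mean level under 5, which include 28 of the 37 collagens, the median KO minus WT difference was -0.0011 at 8 months and -0.08 at 2 months, set beside 0.00 and 0.01 over all tested genes. The part of this shift in the collagen differences was not tested.

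In KO liver 4 collagen genes fell, the type I chains Col1a1 and Col1a2, the type III chain Col3a1 and the type VI chain Col6a1, and 1 rose, the type IV chain Col4a2. The 4 that fell are 10.8% of the 37 tested members, where 4.26% of all tested genes fell. The 1 that rose is 2.7% of members, where 6.81% of all tested genes rose. At an unadjusted p under 0.05 there were 11 members, 29.7%, near the 25% of all genes. The remaining 32 tested members did not pass. No member was at least 1.5-fold lower, and none at least 1.5-fold higher, in KO at each of the ages, where 1.06% of all tested genes were lower and 1.78% higher by that rule. Without the filter on low values Col1a2 alone passed, and without the intensity trend Col1a1 and Col3a1 missed the threshold, with limma adjusted p-values of 0.0502 and 0.073.

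**Figure D1:**
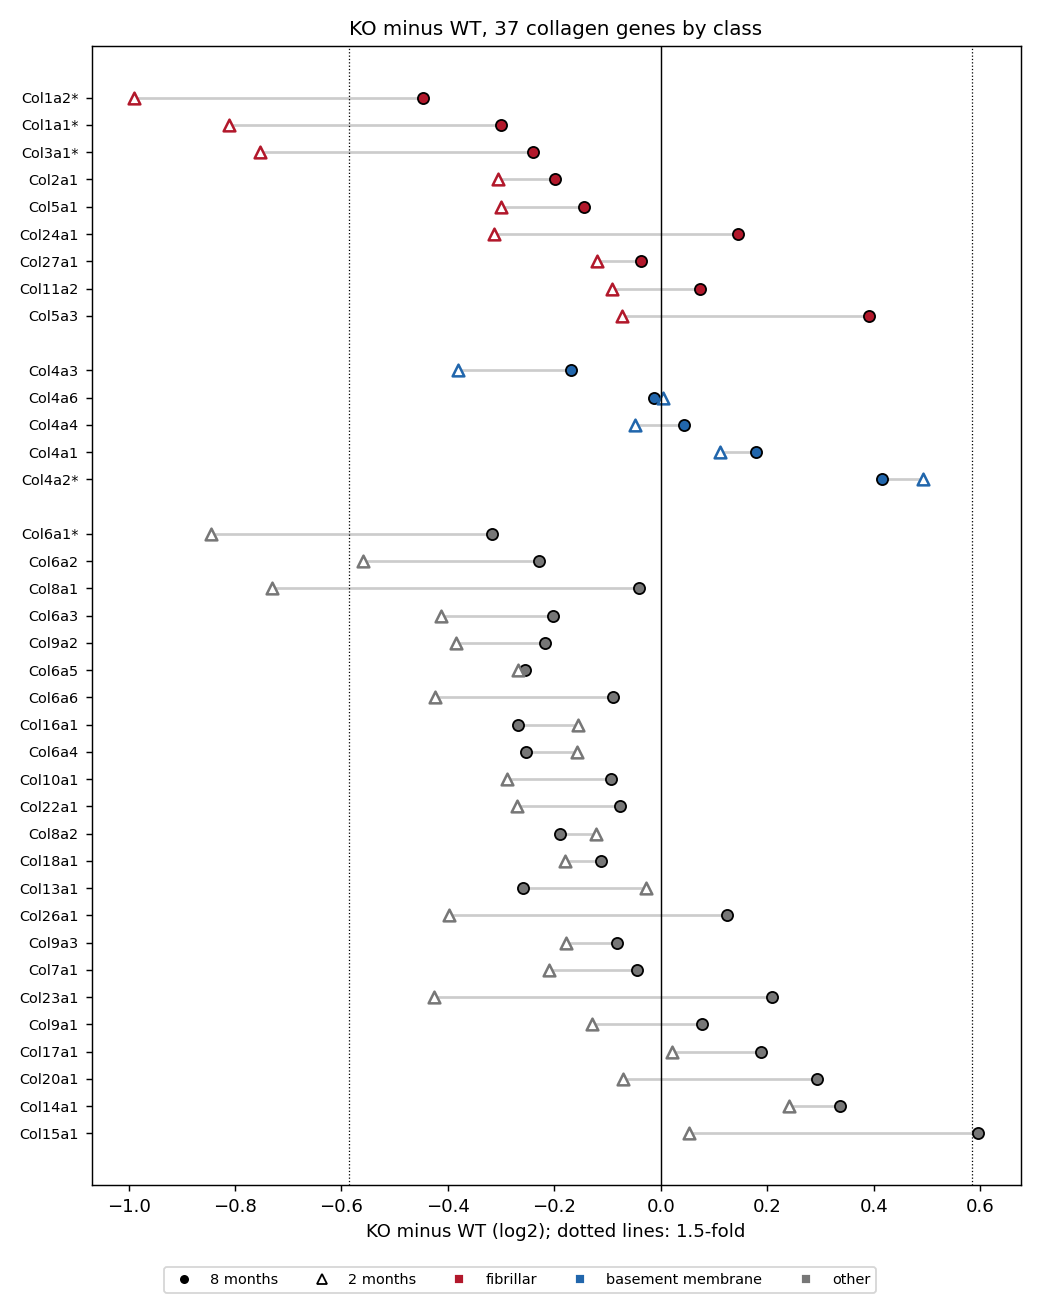
KO minus WT difference in log2 units (x axis) of the 37 tested collagen genes (y axis), grouped by class and ordered by the additive effect within it. Filled circles are 8 months, open triangles 2 months, each the difference of 2 arrays, dotted lines mark 1.5-fold and asterisks the 5 genes past the additive fit. All 9 fibrillar genes lie below 0 at 2 months, as do 83.8% of the 37 collagens and 47.4% of all tested genes. Some lie close to 0, such as Col5a3 at -0.07 and Col11a2 at -0.09. Col4a2 lies at 0.42 and 0.49.

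Both type I chains, which assemble into the main fibre-forming collagen of connective tissue, were highest in WT at 2 months and lower in both KO arrays than in either WT array. Col1a2 (gene 12843) read 5.22 in KO at 8 months and 5.23 in KO at 2 months, against 5.67 in WT at 8 months and 6.22 in WT at 2 months. KO was thus below WT by 0.45 log2 units, or 1.36-fold, at 8 months and by 0.99, or 1.99-fold, at 2 months. The additive effect was -0.72 (SE 0.13, limma adjusted p 0.0039, lower in KO at 2 of 2 ages). Col1a1 (gene 12842) read 5.35 and 5.28 in KO at 8 and 2 months, against 5.65 and 6.09 in WT. Its differences were -0.30 and -0.81, with an effect of -0.56 (SE 0.13, limma adjusted p 0.017). The 2 KO pools of each chain lay within 0.07 of each other, whereas the WT pools were 0.44 apart for Col1a1 and 0.55 for Col1a2.

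Col3a1 (gene 12825) encodes the type III chain, which forms thin reticular fibres together with type I. It read 5.36 and 5.24 in KO at 8 and 2 months, against 5.60 and 5.99 in WT, in the same order of genotypes and with the same peak in WT at 2 months. The differences were -0.24 and -0.75 and the effect was -0.50 (SE 0.13, limma adjusted p 0.031). For Col1a1, Col1a2, Col3a1 and Col6a1, leaving either 2-month array out of the model leaves only the 8-month difference, which is smaller than the additive effect by over 1.5 times and has no test. Without either 8-month array Col3a1 is at -0.75.

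The start regions of the genes that moved together are shown to let their letters be compared, from the RefSeq promoter table of build GRCm38.p6, which held 35 of the 44 collagen genes. Col1a1, Col2a1, Col4a3, Col5a2, Col9a3, Col12a1, Col14a1, Col22a1 and Col26a1 had no entry. Both strands of the 250 bases before each start site were searched for CCAAT, the box bound by NF-Y, TATAAA, the TATA box, GGGCGG, the GC box bound by Sp1, and TGANTCA, the AP-1 site, none of which overlap in the stretches printed. Capitals mark these matches in the bases -150 to -1 from the annotated start of Col1a2 at chr6:4505468-4505617 on the plus strand and of Col3a1 at chr1:45311388-45311537 on the plus strand.
Col1a2: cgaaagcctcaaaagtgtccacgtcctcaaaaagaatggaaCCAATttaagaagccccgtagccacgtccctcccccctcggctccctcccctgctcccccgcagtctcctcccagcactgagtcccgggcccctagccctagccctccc
Col3a1: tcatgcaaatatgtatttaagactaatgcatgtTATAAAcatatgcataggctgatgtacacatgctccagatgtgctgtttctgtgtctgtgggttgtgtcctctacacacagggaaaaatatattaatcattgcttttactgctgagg
The CCAAT match of Col1a2 begins at -109 and the TATAAA match of Col3a1 at -117, so the printed stretches of these genes share no searched motif. Over all 32851 windows of 250 bases before the start site 33.8% held CCAAT, 12.4% TATAAA, 32.7% GGGCGG and 6.75% TGANTCA. Among the 35 collagen genes with an entry, 13 held CCAAT, 5 TATAAA, 21 GGGCGG and 1 TGANTCA in any listed window. These counts are per gene and the percentages per window, so they are not like for like.

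The other 6 tested fibrillar genes did not pass. Col5a1 encodes a type V chain, the core around which type I fibrils assemble, and read 4.31 and 4.18 in KO at 8 and 2 months, against 4.45 and 4.48 in WT (effect -0.22, SE 0.13, limma adjusted p 0.33). Col5a3, another type V chain, was the fibrillar gene with the highest effect, 0.16 (SE 0.14, limma adjusted p 0.54). It read 5.10 in KO at 8 months and between 4.71 and 4.79 on the other arrays, so its value rests on that array. The cartilage chains Col2a1 and Col11a2 had effects of -0.25 and -0.01, and Col24a1 and Col27a1 of -0.08 each. Col2a1 was between 4.42 and 4.55 in KO and between 4.73 and 4.75 in WT, while the KO and WT ranges of Col11a2 and Col24a1 overlapped. Col27a1 read 5.28 and 5.30 in KO at 8 and 2 months, against 5.32 and 5.42 in WT.

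**Figure D2:**
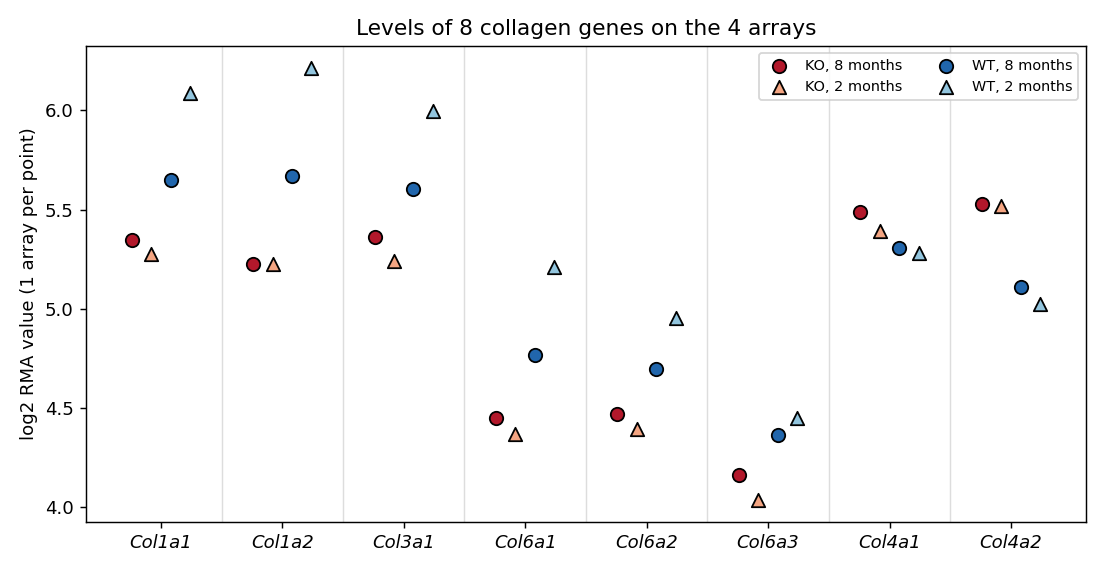
Log2 RMA values (y axis) of 8 collagen genes (x axis), with 1 point per array in the order KO at 8 months, KO at 2 months, WT at 8 months and WT at 2 months. The WT array at 2 months is the highest for Col1a1, Col1a2, Col3a1, Col6a1, Col6a2 and Col6a3, and both KO arrays are above both WT arrays for Col4a1 and Col4a2.

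The type VI genes, whose chains form beaded filaments, were lower in both KO arrays than in both WT arrays for 6 of 6 members, and 1 of them passed the test. Over all tested genes 25.7% lay below WT in this way, and 27.7% of those with a mean level under 5, where all 6 lie. Col6a1 (gene 12833) read 4.45 and 4.37 in KO at 8 and 2 months, against 4.77 and 5.21 in WT. Its differences were -0.32 and -0.84, with an effect of -0.58 (SE 0.15, limma adjusted p 0.023). Col6a2, which lies next to Col6a1 on the same strand, read 4.47 and 4.39 in KO, against 4.70 and 4.95 in WT (effect -0.39, SE 0.13, limma adjusted p 0.084, and 0.0498 when the arrays were quantile normalized again). Col6a3, the largest chain of the common assembly, read 4.16 and 4.04 in KO, against 4.36 and 4.45 in WT (effect -0.31, SE 0.13, limma adjusted p 0.17). Like type I, Col6a1, Col6a2 and Col6a3 were highest in WT at 2 months. Col6a4 and Col6a5 were instead highest in WT at 8 months, at 3.65 and 3.62, against 3.43 and 3.46 in WT at 2 months.

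The genes Col6a4, Col6a5 and Col6a6 encode chains that can stand in for Col6a3. They are neighbouring genes of close sequence, which probes may not fully separate. Their effects were -0.21, -0.26 and -0.26, with limma adjusted p-values of 0.38, 0.25 and 0.29. Col6a5 and Col6a6 had 2 probe sets each, and those of Col6a6 disagreed. The brighter one read 4.12 and 3.96 in KO at 8 and 2 months, against 4.55 and 4.72 in WT, while the dimmer one read 3.18 and 3.16 in KO, against 2.93 and 3.25 in WT. With the brighter probe set alone Col6a6 had an effect of -0.59 and a limma adjusted p of 0.014. The bases -150 to -1 from the start of Col6a1, at chr10:76726045-76726194 on the minus strand, are shown because it is the collagen gene with an AP-1 site among those searched, in capitals, beginning at -90.
Col6a1: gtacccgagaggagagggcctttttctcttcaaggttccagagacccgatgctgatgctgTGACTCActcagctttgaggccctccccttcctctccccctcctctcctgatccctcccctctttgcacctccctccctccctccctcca

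Of the 5 tested type IV genes of the basement membrane 1 rose and 0 fell, where 6.81% of all tested genes rose and 4.26% fell. Col4a2 (gene 12827), a chain of the ubiquitous type IV network, read 5.53 and 5.52 in KO at 8 and 2 months, against 5.11 and 5.02 in WT. It was higher in KO by 0.42 log2 units, or 1.33-fold, at 8 months and by 0.49, or 1.41-fold, at 2 months (effect 0.45, SE 0.12, limma adjusted p 0.024). Col4a1, its partner in the same network, read 5.49 and 5.39 in KO, against 5.31 and 5.28 in WT. The KO arrays of Col4a1 also lay above the WT arrays, but the effect of 0.14 (SE 0.11) did not pass, with a limma adjusted p of 0.49. Over all tested genes 29.1% had both KO arrays above both WT arrays, and of the 37 collagens 4 did, or 10.8%, namely Col4a1, Col4a2, Col14a1 and Col15a1. Of genes with a mean level under 5 it was 18.4%, and of the 28 collagens at such levels 1, Col15a1.

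Col4a1 and Col4a2 are transcribed away from a common start region on opposite strands. Their annotated RefSeq start sites, at 11312826 and 11312805 of mouse chromosome 8, overlap by 22 bases. A stretch of 30 bases on the Col4a2 strand, at chr8:11312764-11312793, is shown for its CCAAT match, which begins at -32 from the Col4a2 start and lies within the Col4a1 transcript.
Col4a2: aggagctccCCAATttgttggcgctgcccc

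Col4a3 and Col4a4 encode chains of specialised basement membranes such as the kidney filter, and Col4a6 a chain found mainly with smooth muscle and epithelia. Their levels were between 3.33 and 3.81, near the low-value limit. Col4a3 read 3.64 and 3.40 in KO at 8 and 2 months, against 3.81 and 3.78 in WT, with an effect of -0.28 (SE 0.14, limma adjusted p 0.23). Col4a4 and Col4a6 had effects of -0.0026 and -0.0036, with limma adjusted p-values of 0.99. The sixth chain, Col4a5, was under the limit, at 3.45 and 3.31 in KO, against 3.11 and 3.03 in WT, and was not called without the filter (limma adjusted p 0.26).

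Among the other collagens Col6a1 alone passed. Over all 23, the median KO minus WT difference was -0.09 at 8 months and -0.21 at 2 months. Col18a1 is a multiplexin of vessel and epithelial basement membranes whose end fragment is endostatin, and hepatocytes also make it. It read 8.04 and 8.07 in KO at 8 and 2 months, against 8.15 and 8.25 in WT (effect -0.15, SE 0.08, limma adjusted p 0.29). Col15a1, the other multiplexin, was the 1 collagen at least 1.5-fold higher in KO at 8 months, where 2.41% of all tested genes were. It read 4.97 in KO at 8 months and 4.49 in KO at 2 months, against 4.37 and 4.44 in WT, so the 8-month KO array stood above the others (effect 0.32, SE 0.15, limma adjusted p 0.20).

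Col14a1, a fibril-associated collagen that binds the surface of type I fibrils, was higher in both KO arrays. It read 7.50 and 7.53 in KO at 8 and 2 months, against 7.16 and 7.29 in WT, and narrowly missed the threshold (effect 0.29, SE 0.09, limma adjusted p 0.052). The remaining 6 tested fibril-associated genes, Col9a1, Col9a2, Col9a3, Col16a1, Col20a1 and Col22a1, had effects between -0.30 for Col9a2 and 0.11 for Col20a1. Col9a2 read 5.07 and 4.81 in KO, against 5.28 and 5.19 in WT (limma adjusted p 0.14), with no overlap between the genotypes. Col16a1 was between 4.27 and 4.36 in KO and between 4.43 and 4.63 in WT. Col20a1 overlapped between genotypes, from 4.41 to 4.46 in KO and from 4.11 to 4.53 in WT.

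Col8a1, a short-chain collagen of vessel walls, was lowest in KO at 2 months. It read 3.51 and 3.08 in KO at 8 and 2 months, against 3.55 and 3.81 in WT, which made its difference -0.04 at 8 months and -0.73 at 2 months (effect -0.39, SE 0.17, limma adjusted p 0.17). Col8a2 and Col10a1, of the same structural type, had effects of -0.16 and -0.19. The transmembrane collagens Col13a1, Col17a1 and Col23a1 had effects of -0.14, 0.10 and -0.11, and Col26a1 of -0.14. Col7a1, the anchoring fibril of skin, had an effect of -0.13 and read 4.46 and 4.23 in KO, against 4.50 and 4.44 in WT. None of these genes passed.

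The 7 collagens under the low-value limit were Col5a2, Col11a1, Col4a5, Col12a1, Col19a1, Col25a1 and Col28a1, with mean levels from 2.81 to 3.29. The members nearest to the limit were Col11a1 just under it, with a mean of 3.29, and Col4a6 just over it, with 3.35. Col5a2, a type V chain that joins Col5a1 in fibrils, read 3.03 and 2.93 in KO at 8 and 2 months, against 3.53 and 3.28 in WT. Without the filter its effect was -0.42 with a limma adjusted p of 0.13. Differences at these levels are compressed by the array's background.

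At 2 months 5 collagens were at least 1.5-fold lower in KO, namely Col1a1, Col1a2, Col3a1, Col6a1 and Col8a1. This is 13.5% of the 37, where 2.39% of all tested genes were, and 0 collagens were 1.5-fold higher, where 3.98% of all genes were. At 8 months 0 collagens were 1.5-fold lower, where 1.93% of all genes were, and 1, Col15a1, was 1.5-fold higher, or 2.7%, where 2.41% of all genes were. The median KO minus WT difference of the 9 fibrillar genes was -0.14 at 8 months and -0.31 at 2 months. For the 5 fibrillar genes with a mean level under 5 it was 0.07 at 8 months and -0.30 at 2 months. The 5 basement membrane genes had medians of 0.04 and 0.01. Over all tested genes the medians were 0.00 and 0.01, and over those with a mean level under 5 they were -0.0011 and -0.08. No test of the difference between classes was made, since genes on the same arrays are not replicates.

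Across the 37 collagens the correlation between the differences at 8 and at 2 months was 0.66 by Pearson and 0.59 by Spearman. These differences share no array, but the genes share all 4 libraries and many are dim. In 28 of 37 the sign was the same at both ages, and it was opposite in 24.3% of collagens and 33.8% of all tested genes. Both KO arrays lay below both WT arrays for 20 of 37 collagens, 54.1%, against 25.7% of all tested genes. Among the 28 collagens with a mean level under 5 it was 14, or 50%, against 27.7% of genes at such levels. The 20 comprise 6 of 9 fibrillar, 1 of 5 basement membrane and 13 of 23 other genes. They include Col6a4, Col6a5 and Col8a1, which were under the low-value limit in KO at 2 months and passed the filter with their higher WT values. The KO array at 2 months was the lowest for 26 of the 37, 70.3%, where it was the lowest for 25.8% of all tested genes. For the 28 dim collagens this was 23, or 82.1%, where it was 42.3% of genes at such levels. The WT array at 2 months was the highest for 18 of the 37, 48.6%, where it was for 24.4% of all tested genes. This was so for 6 of 9 fibrillar, 0 of 5 basement membrane and 12 of 23 other genes. Among the 28 dim collagens it was 13, or 46.4%, where it was 29.2% of genes at such levels.

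No collagen gene passed the test for age. The additive limma fit called 0 of the 37 in either direction, and 0 had an unadjusted p under 0.05, where over all tested genes 0% rose, 0.00836% fell and 3.6% had such a p. In WT the largest age differences belonged to the interstitial chains. From 8 minus 2 months, Col1a2 was at -0.55, Col6a1 at -0.45, Col1a1 at -0.44, Col20a1 at -0.42 and Col3a1 at -0.39. In KO the same genes were at -0.0019, 0.08, 0.07, -0.05 and 0.12. No member reached 1.5-fold with age in either genotype, where 0.209% of all tested genes were higher and 0.443% lower at 8 months in WT, and 0.376% and 0.276% in KO. The WT array at 2 months enters both the age difference in WT and the genotype difference at 2 months, so these are not independent. A change of the genotype effect between the ages has no test here, since each group is 1 array.

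By class, the median age difference of the fibrillar genes was 0.13 in KO and -0.10 in WT, and that of the basement membrane genes 0.10 in KO and 0.06 in WT. All 5 type IV genes had higher values at 8 than at 2 months in both genotypes, from 0.01 for Col4a2 to 0.34 for Col4a4 in KO and from 0.03 for Col4a1 to 0.24 for Col4a4 in WT. The smallest of these differences are under 0.13, the median moderated SD of the members, and none of the 5 genes passed the age test. In KO 32 of 37 collagens were higher at 8 months, 86.5%, where 41.9% of all tested genes were, and in WT 16 of 37, 43.2%, where 50.5% were. The median over tested genes with a mean level under 5 was 0.06 in KO and -0.01 in WT, and over all collagens 0.13 and -0.03. Col15a1 had the largest value in KO, 0.48, followed by Col8a1 with 0.43 and Col5a3 with 0.39.

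**Figure D3:**
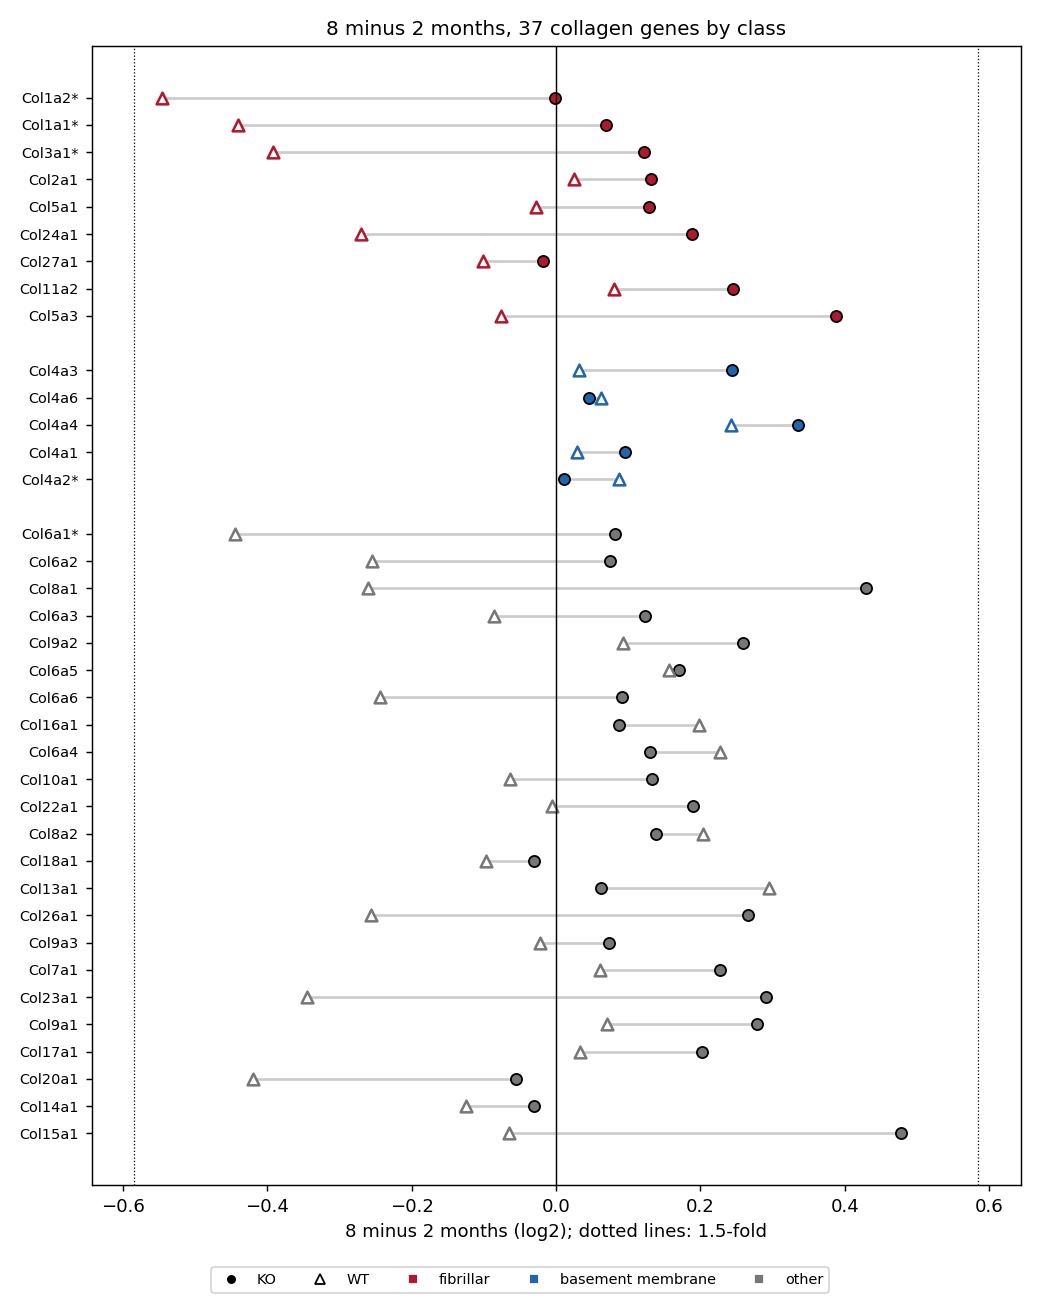
Difference between 8 and 2 months in log2 units (x axis) of the 37 tested collagen genes (y axis), grouped by class. Filled circles are KO and open triangles WT, each the difference of 2 arrays, dotted lines mark 1.5-fold and asterisks the 5 genes past the fit for genotype. Col1a1, Col1a2, Col3a1 and Col6a1 lie between -0.55 and -0.39 in WT and between -0.0019 and 0.12 in KO.

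Of 17 tested genes of the enzymes and chaperones that modify and fold collagen chains, 1 rose and 0 fell, where 6.81% of all tested genes rose and 4.26% fell. The list had medians of 0.05 at 8 months and 0.02 at 2 months. The gene that rose was P4ha1, a prolyl 4-hydroxylase subunit, with 6.05 and 6.33 in KO at 8 and 2 months, against 5.83 and 5.77 in WT (effect 0.39, limma adjusted p 0.045). Of 7 genes of procollagen processing and crosslinking, 1 rose and 1 fell. Bmp1, the protease that removes the end propeptide of fibrillar procollagens, fell, with 7.21 and 7.30 in KO, against 7.88 and 7.87 in WT (effect -0.62, limma adjusted p 0.00045). The transglutaminase Tgm2 rose by 0.31 (limma adjusted p 0.041). The list medians were -0.13 and -0.28.

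Among 9 tested genes of collagen degradation 2 fell and 0 rose, where 4.26% of all tested genes fell and 6.81% rose. The list medians were 0.04 at 8 months and -0.05 at 2 months. The lysosomal protease Ctsl read 8.41 and 8.49 in KO at 8 and 2 months, against 9.39 and 9.32 in WT (effect -0.90, limma adjusted p 1e-05). The metalloproteinase inhibitor Timp2 read 4.88 and 5.08 in KO, against 5.36 and 5.88 in WT (effect -0.64, limma adjusted p 0.0047), and like type I collagen it was highest in WT at 2 months. Of 5 tested collagen receptors none passed, with medians of -0.05 and -0.20.

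Further matrix genes passed in both directions, where 6.81% of all tested genes rose and 4.26% fell. Of 20 other basement membrane genes 1 rose, the laminin chain Lama3 with an effect of 0.52 (limma adjusted p 0.019), and 1 fell, the laminin chain Lamb3 with -0.58 (limma adjusted p 0.018), and the medians were 0.08 and -0.0037. Of 17 other interstitial matrix genes 3 fell and 0 rose, and their medians were -0.08 and -0.20. Postn, a matricellular protein that binds type I collagen, read 3.02 and 2.99 in KO at 8 and 2 months, against 3.59 and 3.98 in WT (effect -0.78, limma adjusted p 0.0038). Both KO values of Postn were under the low-value limit, where differences are compressed. Postn passed the filter with its higher WT values. Elastin (Eln) and the secreted protein Ecm1 fell by 0.46 and 0.56, with limma adjusted p-values of 0.041 and 0.00089.

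Genes of the TGF-beta pathway, the main inducer of fibrillar collagen in stellate cells, included 5 that rose and 0 that fell among 24 tested. Over all tested genes 6.81% rose and 4.26% fell. The median differences of the pathway genes were 0.06 at 8 months and 0.01 at 2 months. Inhba, the activin subunit, read 6.33 and 6.60 in KO at 8 and 2 months, against 5.19 and 5.42 in WT (effect 1.17, limma adjusted p 1.1e-05). Skil, a feedback inhibitor of SMAD signalling, and Ccn2, a matricellular target gene, had effects of 0.75 and 0.61, and the signal transducer Smad3 had an effect of 0.47. The limma adjusted p-values of these 3 lay between 0.00071 and 0.014. Col1a1, Col1a2 and Col3a1 fell on the same arrays.

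Markers of the cells that make collagen did not move as 1 group. The counts of these and the later marker lists stand beside 6.81% of all tested genes that rose and 4.26% that fell. Of 9 tested stellate cell markers 1 rose, Reln by 0.29 (limma adjusted p 0.046), and 1 fell, Ecm1. Lrat, the vitamin A enzyme that defines stellate cells, read 4.27 and 4.57 in KO at 8 and 2 months, against 4.41 and 4.32 in WT, and Des was between 3.62 and 3.73 on all arrays. The summed linear level of the 10 stellate markers on the array was 632 and 674 in KO, against 668 and 686 in WT. The lower KO sums lean on Ecm1, at 7.05 and 7.30 in KO, against 7.62 and 7.85 in WT. Reln, the other bright marker, went the opposite way, at 7.58 and 7.64 in KO, against 7.31 and 7.32 in WT. Of 5 tested myofibroblast and smooth muscle markers 0 rose and 2 fell. Acta2, smooth muscle actin, read 4.43 and 4.62 in KO, against 6.45 and 6.48 in WT, and Myh11 3.43 and 3.25 in KO, against 4.36 and 4.61 in WT. Their effects were -1.94 and -1.14, with limma adjusted p-values of 2.4e-07 and 0.00023, while Tagln was at -0.21 (limma adjusted p 0.38). Tpm2 was at 0.21 (limma adjusted p 0.37), and 3 of the 8 markers on the array were under the low-value limit. Myh11 passed the filter but was under that limit in KO at 2 months. The summed linear level of all 8 was 103 and 105 in KO, against 190 and 192 in WT. Without Acta2, a choice made after seeing the data, it was 81.6 and 79.9 in KO, against 103 and 103 in WT. Probe sets of different response weigh unequally in such sums. Acta2 was nearly level between the WT ages, unlike the type I chains.

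Of 7 tested portal fibroblast markers 0 rose and 1 fell, Eln, and Thy1, Entpd2 and Gli1 did not pass. Their summed level over 10 genes was 134 and 118 in KO at 8 and 2 months, against 137 and 160 in WT, highest in WT at 2 months. Mesothelial markers had 0 of 6 past the test and sums of 80.1 and 85.9 in KO, against 82.8 and 85.7 in WT. The mesothelial Msln, at 4.47 in WT at 2 months and 3.66 to 3.89 elsewhere, had a limma adjusted p of 0.072, while Upk3b and Wt1 had effects of 0.09 and -0.05. Gpm6a went the other way from Msln, at 3.78 and 4.08 in KO, against 3.58 and 3.25 in WT (effect 0.52, limma adjusted p 0.056). Of 9 tested endothelial markers 1 rose, Cdh5 by 0.45 (limma adjusted p 0.024), with Pecam1 at 0.12 and Kdr at -0.01 and sums of 523 and 554 in KO, against 518 and 537 in WT. The part of these cell types in the collagen values was not tested.

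For the remaining cell types, 1 of 4 tested cholangiocyte markers fell, Krt23 by 0.66 (limma adjusted p 0.0061), the bile duct keratins Krt7 and Krt19 had effects of 0.01 and -0.02, and Epcam was under the low-value limit. The summed level of the 6 cholangiocyte markers on the array was 69.8 and 72.4 in KO at 8 and 2 months, against 77.4 and 86.5 in WT. Of 7 tested macrophage markers 2 rose, Cd5l by 0.72 and Vsig4 by 0.49, and 1 fell, Lyz2 by 0.52, while Adgre1, Cd68 and Clec4f had effects of 0.17, 0.35 and 0.01 and did not pass. Lyz2 was also the 1 macrophage marker past the test for age, with 8 minus 2 months at -0.70 in KO and -0.90 in WT. None of 7 tested hepatocyte, 2 pancreas and 1 lymphocyte markers passed. The T cell gene Cd3e was at -0.19 and the pancreatic enzyme gene Cela1 at 0.05, while the B cell gene Cd79a and the pancreatic Prss2 and Cpa1 were under the low-value limit. Of 2 tested adipocyte markers the lipid droplet gene Cidec fell by 0.58 (limma adjusted p 0.0065), Plin1 was at -0.32 (limma adjusted p 0.20), and Adipoq was under the limit.

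**Figure D4:**
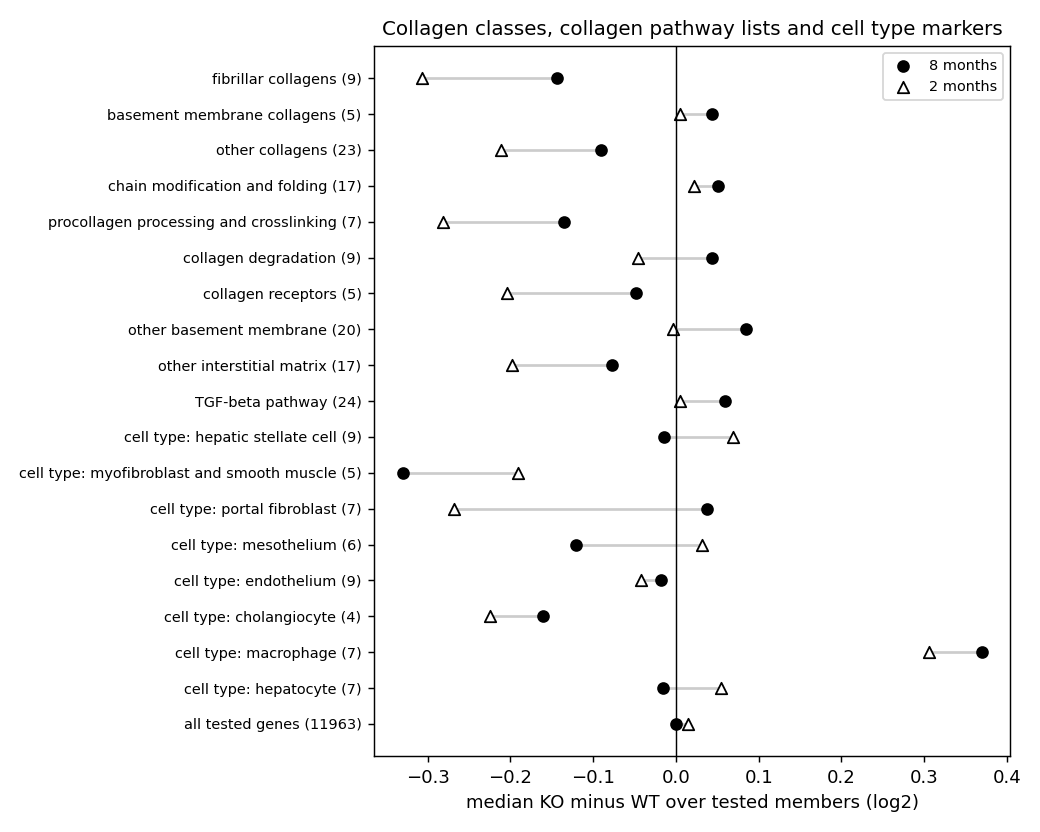
Median KO minus WT difference in log2 units (x axis) over the tested members of each collagen class, pathway list and cell type marker list with at least 3 tested members (y axis, number of tested genes in brackets). Filled circles are 8 months and open triangles 2 months. Fibrillar collagens are at -0.14 and -0.31, basement membrane collagens at 0.04 and 0.01, and all tested genes at 0.00 and 0.01.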

How the data were processed

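Per the submitters' processing notes, the authors ran RMA in version 1.0v of Affymetrix Expression Console and deposited its log2 values. This method subtracts background, forces equal value distributions on the arrays and fits probes into probe sets, and it compresses differences of dim genes. The file names no log base, which is taken from RMA. Neither the genome build nor the probe annotation was given in the sources used here. Values ran from 0.89 to 13.3.

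Probe sets with 1 symbol (21789 of 35556) were averaged per gene. Genes with a mean above the 40th percentile were fitted in R 4.3.3 with limma 3.58.1 (lmFit and eBayes with intensity trend, genotype plus age, a prior of 11.3 degrees of freedom). On 20 simulated sets of 11963 genes the fit recovered a median of 91.5% of 1.5-fold and 100% of 2-fold genotype changes, with a median of 6.73% false calls. The noise of these sets was independent and drawn from the SD of the fit, with additive genotype effects and no age effect. The rates therefore describe the fit under its own assumptions, and not its error on the 4 arrays. Each group is 1 array, whose number limits the precision, and nothing measures the spread within a group. All tested collagens are named, and from each other list the genes past the fit, at most 4 each way, with the first 3 of each cell type. Tpm2 and Gpm6a are named besides, as markers whose values went against others of their list. The collagen classes, lists and motifs were chosen with earlier results of these data known.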

Additional observations from a re-analysis of the deposited data

Results flagged for a closer look

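Col23a1, a transmembrane collagen, differed in opposite directions at the 2 ages. It read 4.87 and 4.58 in KO at 8 and 2 months, against 4.66 and 5.01 in WT, which gave KO minus WT values of 0.21 and -0.43, 0.64 log2 units apart. With 1 array per group this difference was not tested, and the additive effect did not pass. Sign changes between the ages were seen in 9 of 37 tested collagens, 24.3%, and in 33.8% of all tested genes, and Col23a1 was the collagen whose opposite values were at least 1.5-fold apart.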

How the results depend on the processing

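The count of collagens that rose with genotype was 0 without the filter on low values and 2 at an adjusted p of 0.1, against 1 as reported. The count that fell was 1 without the filter and 2 without the intensity trend, against 4 as reported. Without the filter more dim genes enter the adjustment, and the limma adjusted p was 0.075 for Col1a1, 0.11 for Col3a1, 0.087 for Col6a1 and 0.065 for Col4a2. Col1a2 passed in all 8 settings, with limma adjusted p-values from 0.00028 to 0.032 and effects from -0.77 to -0.68. No effect of these 5 genes changed sign under median centring, repeated quantile normalization or cyclic loess. For these 5 genes the 20th percentile filter and the trend act on the p-values alone. Each of these genes has 1 probe set, so taking the brightest one could not move an effect either. With a fold of 1.3, KO against WT gave 3 collagens higher and 1 lower at 8 months and 1 higher and 12 lower at 2 months. With a fold of 2 it gave 0 higher at 8 months and 0 lower at 2 months. For age, a fold of 1.3 gave 3 higher in KO and 5 lower in WT at 8 months, against 0 as reported. The class medians moved by less than 0.13, the median moderated SD of the members, under every alternative. The median additive effect of the basement membrane genes changed sign, from -0.0026 to 0.07 without the filter or at the 20th percentile, where Col4a5 enters. It was 0.04 after median centring, 0.05 after repeated quantile normalization and 0.06 after cyclic loess. Leaving out an array leaves the difference at the other age, without a test, and KO minus WT then ranged from -0.81 to -0.30 for Col1a1, -0.99 to -0.45 for Col1a2, -0.75 to -0.24 for Col3a1, -0.84 to -0.32 for Col6a1 and 0.42 to 0.49 for Col4a2. This and the comparison with genes under a mean level of 5 were chosen after seeing the data. No paired analysis was possible because each group holds 1 array, so that the shared number 1 pairs nothing.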
